A study of Mus musculus with 6 samples.

Results

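Ephrin-B ligands and EphB receptors are a signaling family of 8 mouse genes, 3 ligands (Efnb1, Efnb2 and Efnb3) and 5 receptors (Ephb1, Ephb2, Ephb3, Ephb4 and Ephb6). Members were taken by gene symbol, and a probe set was used only where the array annotation ties it to exactly 1 symbol. Of the 8 genes, 7 had such a probe set, 12 probe sets in all, out of 18193 genes and 45037 probe sets on the array. Ephb2 had none and is not analysed here. The comparison was between 3 arrays of naïve Large T BMSC, the parent line, and 3 arrays of iLarge T BMSC, the cells recovered from stroke brain. Both groups carry the temperature-sensitive tsA58 form of SV40 large T antigen under the H-2Kb promoter, derive from adherent marrow cells of Immortomouse animals (a CBA/ca and C57Bl/10 hybrid background) and were grown at 33°C, and the labels state 3 passages for each. iLarge T BMSC had in addition been injected into a vein of male C57BL/6 mice aged 6 to 8 weeks at 24 h after a stroke made by 60 min of middle cerebral artery occlusion. They were released with collagenase from the infarcted hemisphere 14 days after injection and cultured again, so the groups differ in the passage through a host, in tissue digestion and in regrowth, which cannot be told apart. RNA of 3 preparations was pooled for each array, and the p-values measure only the spread between these arrays. In pools of this kind, fewer cells of a type and less RNA per cell cannot be told apart.

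Ephrin-B ligands are transmembrane proteins, and EphB receptors are receptor tyrosine kinases, so the pair signals mainly where cells touch. The receptor-bearing cell receives a forward signal through its kinase, and the ligand-bearing cell a reverse signal through the cytoplasmic tail of the ephrin, which is phosphorylated on tyrosine and binds PDZ proteins. The family is known for repulsion of axons, sorting of cells at tissue boundaries, separation of arteries (Efnb2) from veins (Ephb4), and coupling of osteoclasts with osteoblasts in bone. In marrow stroma, ephrin-B and EphB proteins are known to act in adhesion and in support of blood-forming cells.

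A single member passed the test, Ephb3, which fell about 4-fold in iLarge T BMSC. The signal of Efnb1 was also below every naïve array on each iLarge T array, but Efnb1 did not pass the adjusted threshold, and no member passed the test as higher. By limma, a linear model that shares its estimate of spread among probe sets, 1 of 7 measured genes was called lower and 0 higher, where calls required both an adjusted p below 0.05 and no less than a 2-fold change. Over all 18193 genes, 3.26% were called lower and 3.54% higher. At an unadjusted p under 0.05, limma gave 0 members higher and 2 lower, Efnb1 and Ephb3, where over all genes 11.6% were higher and 10.5% lower. The methods' t-test on log2 signals gave the same 2 members, against 9.70% of genes higher and 9.52% lower, and called 0 members after Benjamini-Hochberg adjustment. The iLarge T signals all lay below the naïve signals for 2 of 7 members, against 13.1% of all genes, and all above them for 0 of 7, against 14.5%. Of the 12 probe sets, 1 was called lower, against 2.27% of all probe sets. The median log2 difference (mean log2 signal of iLarge T minus that of naïve BMSC) was -0.82 for the 3 ligands, 0.24 for the 4 measured receptors and 0.06 for all genes. The ligand median is the value of Efnb2, which was -0.30 without naïve replicate 1. The receptor median lies between the values of Ephb4 and the dim Ephb1, so neither median gives a direction for its group.

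**Figure D1:**
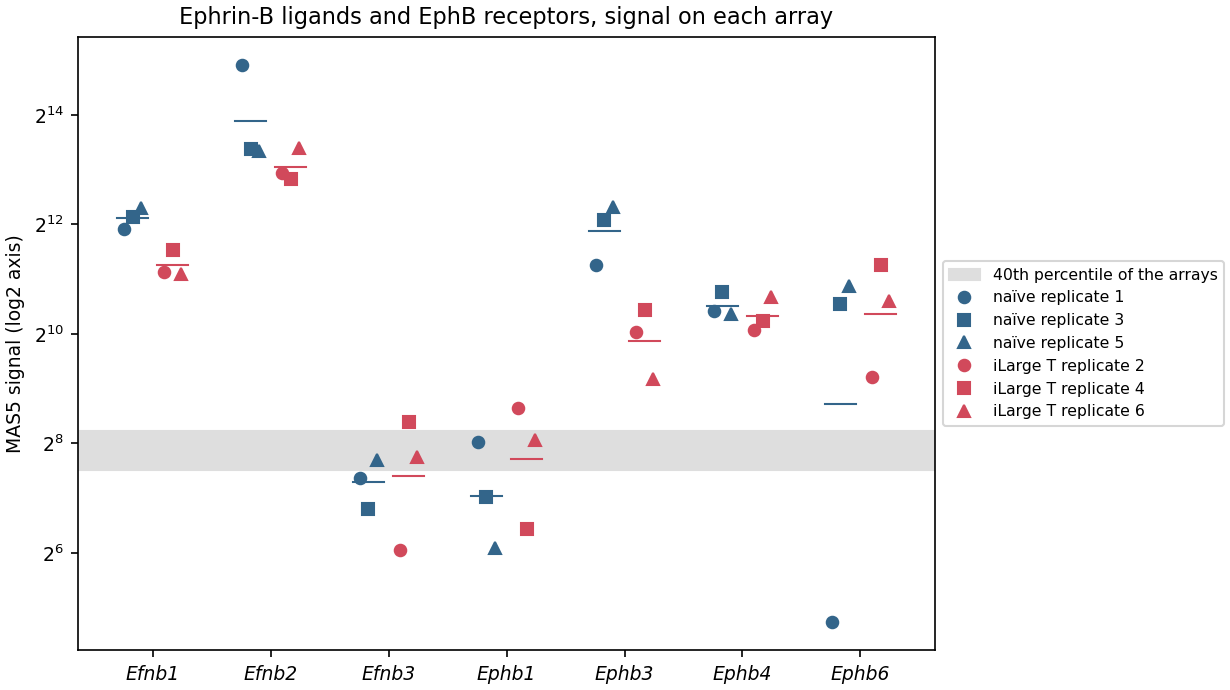
MAS5 signal (log2 axis) of each measured member at its main probe set, on 3 naïve (blue) and 3 iLarge T (red) arrays; horizontal bars are group means of the log2 signals, and the grey band spans the 40th percentiles of the 6 arrays, 182.5 to 299.6. Efnb1 and Ephb3 separate the groups, Efnb3 and Ephb1 lie around the band, and heights of different genes are not comparable because probe sets differ in response.

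The values are MAS5 signals, linear intensities that the authors scaled to a common trimmed mean on each array, and the number of arrays limits the precision. No detection calls accompany them, so the 40th percentile of each array, between 182.5 and 299.6, was used as a guide to background. Naïve replicate 1 and iLarge T replicate 6 stood apart on values that bear on the members. Naïve replicate 1 correlated with the other naïve arrays at a mean of 0.830 across probe sets, against 0.861 for each of the others. iLarge T replicate 6 had a summed signal of 9 endothelial markers of 55268, where its group otherwise had 8172 and 8581 and naïve arrays 6969.8 to 9971. The naïve sums were mostly Tek, the angiopoietin receptor, which fell from 5703, 8480.0 and 9080.2 to 502, 458 and 1300.3. Cdh5 (VE-cadherin), Emcn (endomucin) and Flt1 (a VEGF receptor) rose and lay above naïve on all 3 iLarge T arrays, with Cdh5 at 2211, 2787 and 23797 against 27.5 to 209.9 in naïve BMSC. These 3 transcripts were therefore not particular to replicate 6. Pecam1, Tie1 and Erg read 62.5, 147 and 53.6 on replicate 2 and 580, 143 and 24.2 on replicate 4. On replicate 6 they read 3559.5, 1367 and 1312, so their signal lay mainly on that array. Replicate 6 also had the highest signal of Cdh5, Emcn and Flt1. Its summed signal of 7 macrophage and microglia markers was 32484, where replicates 2 and 4 had 5762 and 4357 and the naïve arrays 2593 to 10756, and Ptprc (CD45) reached 4440.4, against 206 and 196 on those arrays. Cd68 made up most of the naïve sums on replicates 3 and 5 (9873 and 8396), while Csf1r, the receptor of macrophage growth factor, rose on all 3 iLarge T arrays, from 883, 330.2 and 339 to 3716, 1892 and 5673. No stromal marker of 11 measured was near background on all arrays of a group, and of these genes Pdgfrb and Cd44 were called higher, Vcam1 lower and 8 neither.

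Efnb1 encodes ephrin-B1, a ligand of EphB receptors that organizes cranial and skeletal mesenchyme. Its main probe set read 3865, 4507 and 5039.5 in naïve BMSC (replicates 1, 3 and 5 in this order) and 2243, 2969 and 2180.2 in iLarge T BMSC (replicates 2, 4 and 6). The highest iLarge T signal was below the lowest naïve signal, so the groups did not overlap. The means were 4471 ± 588 for the naïve and 2464 ± 438 for the iLarge T arrays (SD, n = 3 each), a log2 difference of -0.87 ± 0.28 (SE), with a 95% interval from -1.49 to -0.24. With an unadjusted p of 0.0116 and an adjusted p of 0.125 from limma over all probe sets, Efnb1 was not called. The authors report ephrin-B1 among the axon guidance genes with significantly reduced expression, which is the same direction. The methods' t-test as run here gave the main probe set of Efnb1 an adjusted p of 0.158 on log2 and 0.182 on linear signals.

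The other probe sets of Efnb1 gave the same order of groups. At the second, naïve signals of 2957, 3285 and 4442.5 stood against 1208, 1289 and 2003.5 in iLarge T BMSC, which gave a log2 difference of -1.26 ± 0.33 (SE) at a limma adjusted p of 0.0654. At the third, 2131, 2205 and 2403 in naïve stood against 1536, 1518 and 847 in iLarge T BMSC, which gave a log2 difference of -0.84 ± 0.36 (SE) at a limma adjusted p of 0.256. Thus 3 of 3 probe sets separated the groups without overlap, and naïve replicate 5 was the highest array at each. The probe sets share their RNA and are not replicates of one another. The second probe set was called without naïve replicate 1 (log2 difference -1.39, adjusted p = 0.0268 from limma) and with arrays of similar hybridization control signals paired as a block (adjusted p = 0.0250), as well as with low signals raised (adjusted p = 0.0475), but neither of the others was. The main probe set came to an adjusted p of 0.0503 by limma without naïve replicate 1.

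**Figure D2:**
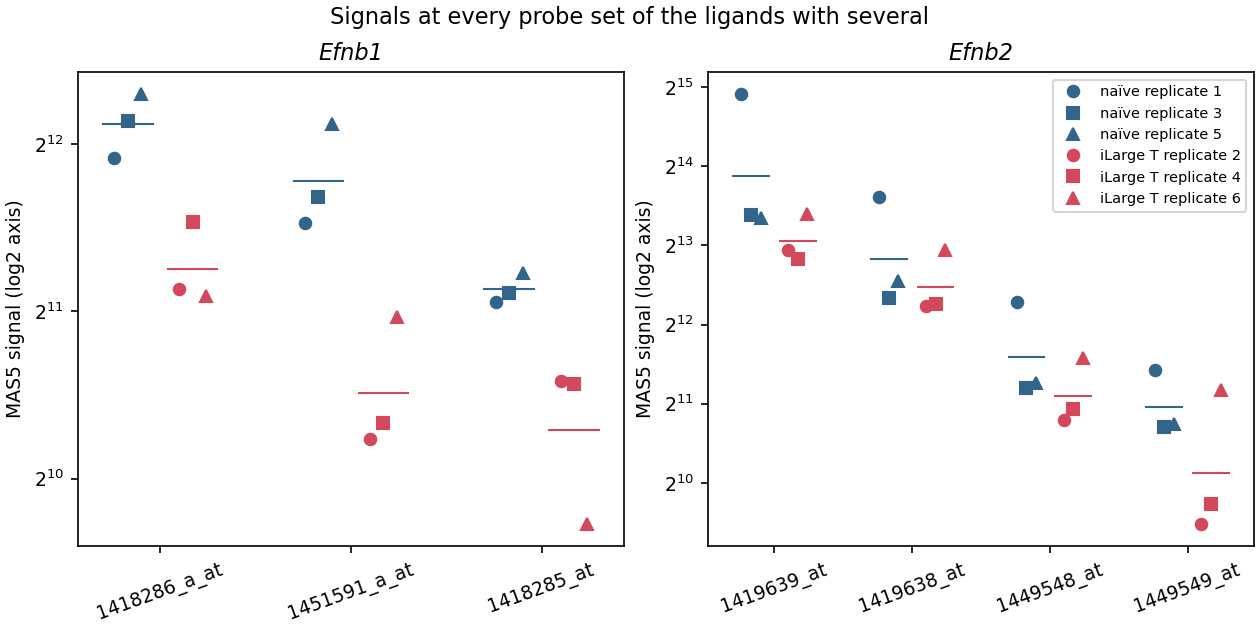
MAS5 signal (log2 axis) at the 3 probe sets of Efnb1 and the 4 of Efnb2, on 3 naïve (blue) and 3 iLarge T (red) arrays; bars are group means of the log2 signals. All probe sets of Efnb1 separate the groups, and at all probe sets of Efnb2 the highest point is naïve replicate 1.

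Efnb2 encodes ephrin-B2, the ligand that marks arterial endothelium and pericytes and binds EphB4. Its main probe set read 30918, 10648 and 10377 in naïve BMSC and 7856, 7289 and 10794 in iLarge T BMSC. One naïve array was thus about 3 times as bright as the others, and iLarge T replicate 6 lay above the remaining naïve arrays, so the groups overlapped. The log2 difference was -0.82 ± 0.41 (SE), with a 95% interval from -1.74 to 0.09 and a limma adjusted p of 0.344, and -0.30 (adjusted p = 0.535) without naïve replicate 1. None of the 4 probe sets was called, and naïve and iLarge T signals overlapped at each. At the other 3, log2 differences were -0.35, -0.48 and -0.83, with adjusted p of 0.709, 0.597 and 0.438 from limma. Naïve replicate 1 was the brightest array at all of them, with 12483, 5010.2 and 2751, where the next naïve signals were 5982, 2453.5 and 1706. Without it these 3 log2 differences were 0.04, -0.13 and -0.59. A lower level of Efnb2 in iLarge T BMSC therefore rested in large part on 1 array.

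Efnb3 encodes ephrin-B3, a ligand best known as a midline barrier to corticospinal axons. Its single probe set read 166, 112 and 207 in naïve BMSC and 66.9, 334.5 and 217 in iLarge T BMSC. Of these 6 signals, 3 fell short of that background guide, 2 of them naïve. The log2 difference was 0.11 ± 0.93 (SE), with a 95% interval from -1.98 to 2.20 and a limma adjusted p of 0.973, an interval too wide to show whether Efnb3 differed. The sign turned to -0.024 with quantile normalization, so no direction is given for Efnb3.

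Ephb3 encodes EphB3, a receptor known for boundary formation in gut epithelium and palate and as a target of Wnt signaling. Its probe set read 2461, 4311 and 5126 in naïve BMSC and 1044.7, 1388 and 576.5 in iLarge T BMSC. All 6 signals were above the 40th percentile of their array, and the highest iLarge T signal lay below the lowest naïve signal. Ephb3 fell from 3966 ± 1366 to 1003 ± 408 (SD, n = 3 each), a log2 difference of -2.01 ± 0.43 (SE), with a 95% interval from -2.97 to -1.05 and a limma adjusted p of 0.0281. This is a 4.02-fold decrease, and 4.36% of all genes had a lower log2 difference. The call came from the only probe set of the gene, so no second probe set checks it.

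The decrease of Ephb3 kept its direction under all 17 alternative settings, but the call was lost under 7 of them. Because the groups did not overlap, leaving out an array could not turn the direction. Other choices of probe set reused the only probe set of Ephb3, and dropping the fold threshold could not undo a call. Apart from these, the call held under 7 of 14 settings. Among pairs of arrays with like hybridization control signals, the log2 difference was -1.24 for iLarge T replicate 2 minus naïve replicate 1, -1.63 for replicate 4 minus 3 and -3.15 for replicate 6 minus 5. With these pairs as a block the adjusted p was 0.0236 by limma. The largest difference thus involved iLarge T replicate 6. That array had the highest sums of endothelial, macrophage, pericyte and meningeal fibroblast markers, and also of astrocyte, neuron and oligodendrocyte markers. Its stromal sum was the highest as well, but near that of iLarge T replicate 2 (512210 against 505165). The sum of neural progenitor markers on replicate 6 was the lowest of the iLarge T arrays. Whether any of these cells had a part in the difference was not tested. Without iLarge T replicate 6 the log2 difference was -1.65 (adjusted p = 0.0879). It was -2.08 (0.0782) without iLarge T replicate 2, -1.91 (0.128) without naïve replicate 3 and -1.79 (0.131) without naïve replicate 5, where the values in parentheses are adjusted p from limma. The methods' t-test gave adjusted p of 0.195 on log2 and 0.261 on linear signals, and limma without the intensity trend 0.156.

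**Figure D3:**
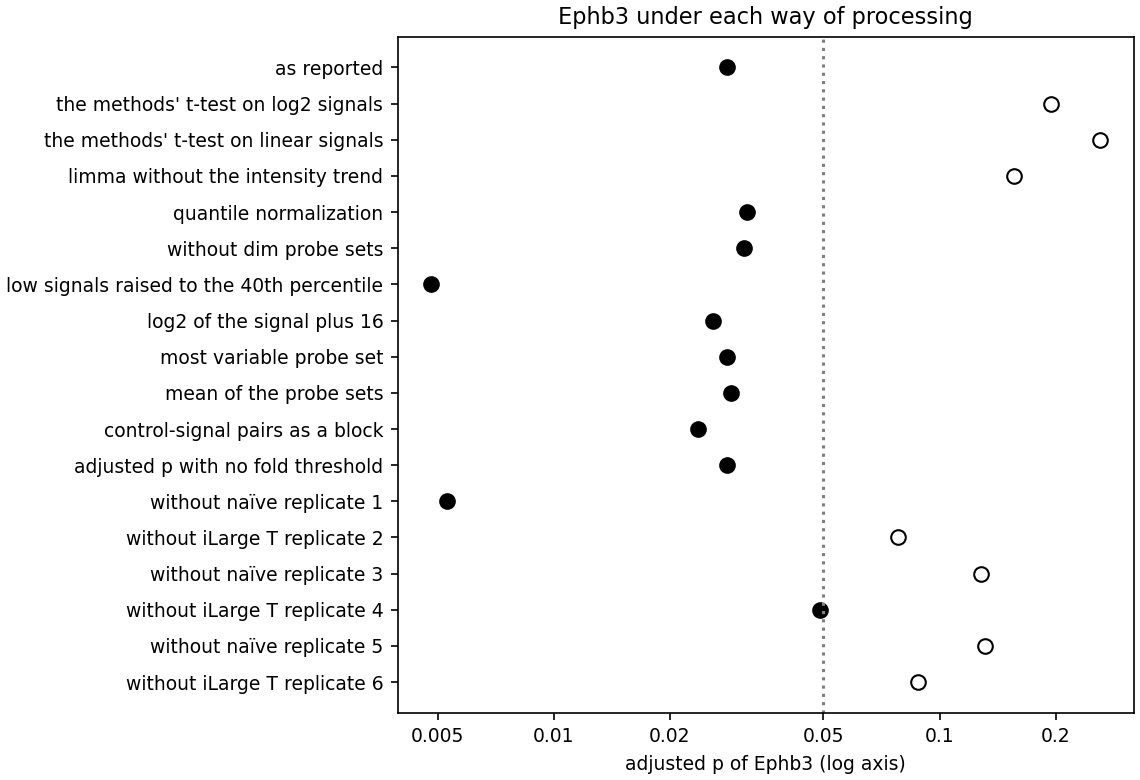
Adjusted p of Ephb3 (log axis) as reported and under each of 17 alternative settings; filled points were called, open points were not, and the dotted line marks 0.05. Values run from 0.00481 to 0.261, and the open points comprise 3 other tests and 4 of the 6 settings with an array left out.

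Mesothelial markers were lower in iLarge T BMSC, the same direction as the signals of Ephb3 and Efnb1. Of 7 such genes, 6 were called lower in iLarge T BMSC by limma and 0 higher, and their summed signal ranged from 156579.5 to 233148 on naïve and from 3737 to 4997.8 on iLarge T arrays. Upk3b, a uroplakin of mesothelium, and Bnc1 gave only background signals in all 3 iLarge T samples. Wt1, the Wilms tumor factor, and Lrrn4 did so in 2 of 3. Of 4 neural progenitor markers, 3 were called higher, Sox2, Nes and Fabp7, with summed signals of 862 to 1390.1 in naïve and 10221 to 25033 in iLarge T BMSC. Fabp7 made up most of the iLarge T sums (15091, 17375 and 7112.5), and Pax6 was not called (log2 difference -0.64). Of 6 astrocyte markers 1 was called higher, S100b, and of 6 neuron markers 1, Tubb3. None of 5 measured oligodendrocyte markers was called. Of 6 pericyte markers, 2 were called higher, and their summed signals ranged from 604.5 to 11330.0 in naïve and from 8130.8 to 46154 in iLarge T BMSC, where the naïve maximum was mostly Mcam on replicate 1 (10612). Of 7 meningeal fibroblast markers, 2 were called higher, Foxc1 and Aldh1a2, and 5 lay above naïve on every iLarge T array, with sums of 20224 to 42518 in naïve and 43905 to 116014 in iLarge T BMSC. Whether cells of these kinds had a part in the values of Ephb3 and Efnb1 was not tested.

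The start regions of Ephb3 and Efnb1 are shown because these members separated the groups. Each window holds 250 bases before and 50 after a transcription start in RefSeq on build GRCm38.p6, on the plus strand, at chr16:21204545-21204844 for Ephb3 and chrX:99135811-99136110 for Efnb1. Capitals mark matches on either strand to the GC box GGGCGG and the RBPJ core TGGGAA, and the TCF/LEF cores CTTTGA and CTTTGT and the TATA box TATAAA were searched as well. The marked matches do not overlap.

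Ephb3: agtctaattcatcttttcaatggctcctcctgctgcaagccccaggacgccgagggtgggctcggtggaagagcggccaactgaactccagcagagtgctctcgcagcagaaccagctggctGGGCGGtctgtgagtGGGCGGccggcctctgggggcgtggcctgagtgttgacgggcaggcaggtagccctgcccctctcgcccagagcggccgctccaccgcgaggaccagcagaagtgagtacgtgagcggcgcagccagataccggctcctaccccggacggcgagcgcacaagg

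Efnb1: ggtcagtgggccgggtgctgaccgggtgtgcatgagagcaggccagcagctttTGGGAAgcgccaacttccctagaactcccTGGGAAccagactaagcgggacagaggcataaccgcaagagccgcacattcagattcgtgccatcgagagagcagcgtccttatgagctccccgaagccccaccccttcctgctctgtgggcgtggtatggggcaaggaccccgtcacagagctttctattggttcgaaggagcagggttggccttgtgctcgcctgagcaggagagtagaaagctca

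The Ephb3 window held 2 GC boxes, at positions -128 and -113 from the start, which 35.7% of 32851 mouse windows of this length hold at least once. The RefSeq gene of Ephb3 begins at base 21204620, ahead of the start used here. Both GC boxes therefore lie inside the annotated gene, not upstream of it. The Efnb1 window held 2 RBPJ cores, at positions -197 and -168, present in 25.6% of all windows. Neither held a TCF/LEF core (31.2% of all windows) or a TATA box (13.6%). GC content was 66.7% for Ephb3 and 59.7% for Efnb1, against a median of 52.7% over all windows. CpG dinucleotides numbered 23 in the Ephb3 and 14 in the Efnb1 window, against a median of 7. Neither window held the motif marked in the other, and a match is a run of letters, not a measured binding site.

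Ephb4 encodes EphB4, the venous receptor of ephrin-B2 and a receptor of osteoblasts. Its probe set read 1376, 1745 and 1310.2 in naïve BMSC and 1071, 1211 and 1635 in iLarge T BMSC. The groups overlapped, with means of 1477 ± 234 and 1305.5 ± 293 (SD, n = 3). The log2 difference was -0.19 ± 0.36 (SE), with a 95% interval from -0.99 to 0.61 and a limma adjusted p of 0.857. Of the measured receptors Ephb4 had the narrowest interval, and a decrease of over 2-fold or an increase of 2-fold lay outside it.

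Ephb1 encodes EphB1, a receptor that steers retinal axons to the same side of the brain. Its probe set read 259, 130.1 and 68.35 in naïve BMSC and 400.1, 86.4 and 268 in iLarge T BMSC. All 3 naïve signals and 1 iLarge T signal were dimmer than the 40th percentile of their arrays. The log2 difference was 0.67 ± 0.97 (SE), with a 95% interval from -1.50 to 2.84 and a limma adjusted p of 0.802, so no difference was detectable near background.

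Ephb6 encodes EphB6, a family member whose kinase domain is inactive. Its probe set read 26.65, 1491 and 1879 in naïve BMSC and 591, 2459 and 1555 in iLarge T BMSC. Naïve replicate 1 was thus under the 40th percentile of its array, 282, whereas the other 5 arrays were well above theirs. The log2 difference was 1.64 ± 1.40 (SE), with a 95% interval from -1.48 to 4.76 and a limma adjusted p of 0.626 with all arrays. Without naïve replicate 1 it turned to -0.35 (adjusted p = 0.779), so its direction rested on 1 array. iLarge T replicate 2, which resembles naïve replicate 1 in hybridization control signals, was the lowest of its group as well.

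**Figure D4:**
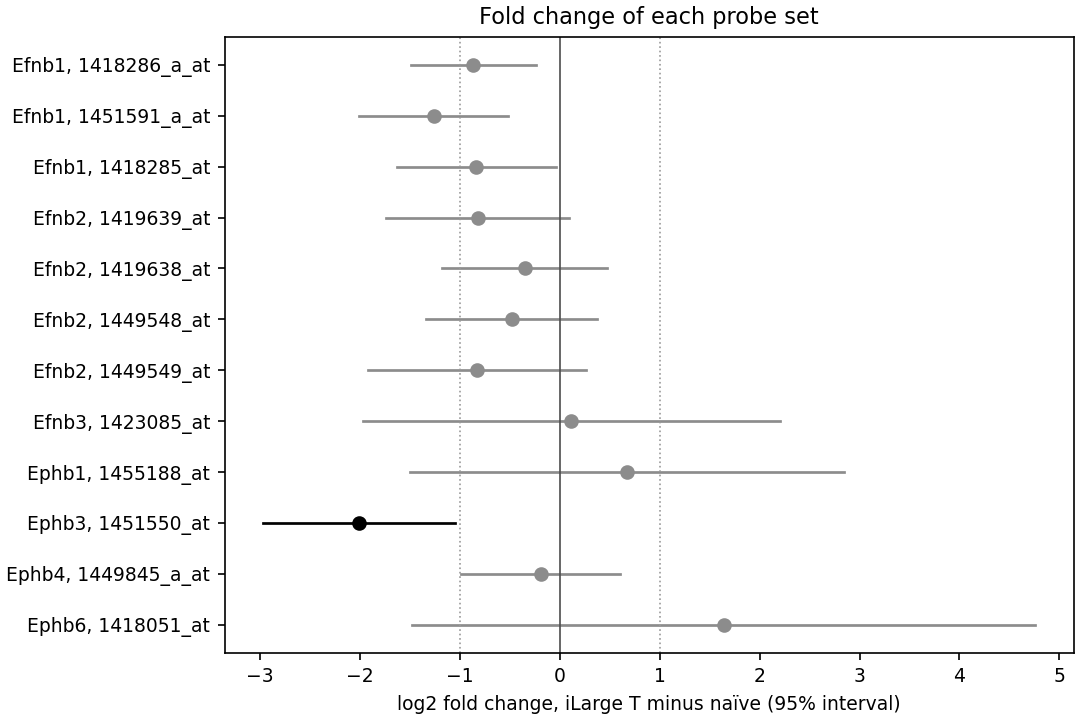
Log2 difference, iLarge T minus naïve (horizontal axis), of the 12 probe sets of the family, with the 95% interval from limma; black marks the called probe set, and dotted lines mark a change of 2-fold. The interval of Ephb3 runs from -2.97 to -1.05, those of the 3 probe sets of Efnb1 lie below 0, and those of Efnb3, Ephb1 and Ephb6 are the widest.

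Genes whose arrays followed Ephb3 most closely were sought among 9096 genes with a mean log2 signal at or over the median gene, by the mean absolute difference of centred log2 signals over the 6 arrays. The nearest were Raph1, an actin regulator of lamellipodia (0.14), Mdc1, a DNA damage checkpoint mediator (0.17), and Pan2, a deadenylase subunit (0.18). Their log2 differences were -1.84, -2.08 and -1.67, which the choice by likeness to Ephb3 fixed to be near that of Ephb3, so no test is given.

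Partners that bind the ephrin-B tail or act in reverse signaling were for the most part not called. Of 19 measured genes, limma called 2 lower, 0 higher and 17 neither, where 3.26% of all genes were called lower and 3.54% higher. The median log2 difference was -0.38, against 0.06 over all genes. Both genes that fell encode polarity proteins of the PAR6 family, whose complex ephrin-B1 is known to bind at tight junctions. Pard6b read 1929, 3432 and 4628 in naïve BMSC and 246, 277 and 133 in iLarge T BMSC, a log2 difference of -3.91 ± 0.51 (SE) at a limma adjusted p of 0.00312. Of its iLarge T signals, 2 were under the 40th percentile of their array. This call held with each array left out, with adjusted p of 0.000810 to 0.0249, and was lost at the most variable probe set (0.0513). Pard6a read 2129.6, 3753 and 3688 on naïve and 930.6, 799.6 and 1136 on iLarge T arrays, a log2 difference of -1.71 ± 0.36 (SE) at a limma adjusted p of 0.0262. Its call was lost with any array but naïve replicate 1 left out, at adjusted p of 0.0575 to 0.151. All calls in this and the related lists below were lost under the methods' t-test, and all but that of Pard6b under limma without the intensity trend. The kinases and adaptors of the reverse signal, such as Fyn (log2 difference 0.70, adjusted p = 0.184), Nck2 (-0.67, 0.312) and Src (0.25, 0.857), were not called by limma.

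None of 27 measured genes of forward signaling was called by limma, and 4 had an unadjusted p under 0.05, all of them higher. Over all genes 11.6% were higher at that threshold. The methods' t-test on log2 signals also gave 4, all higher, against 9.70% of all genes higher, and called 0. Of these, Itsn1 and Rasa1 were shared with limma, and Crk and Cbl were not. The 4 from limma included Kalrn, known for its part in dendritic spines, and Itsn1, an exchange factor for Cdc42. The others were Rasa1, a Ras GTPase-activating protein bound by EphB receptors, and Abl2, a cytoplasmic tyrosine kinase. In this order, the log2 differences of the 4 were 1.96 (adjusted p = 0.184 from limma), 0.98 (0.113), 0.82 (0.103) and 0.70 (0.279). Kalrn was called higher with the control-signal pairs as a block (adjusted p = 0.0466), and Kalrn and Itsn1 were without naïve replicate 1. The median of the list was 0.15. Ptk2 and Pak1 had no probe set of their own and are not analysed here.

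Of 9 measured genes for proteins that cleave ephrin-B or EphB, limma called 1 higher and 0 lower. Over all genes, 3.54% were called higher and 3.26% lower. Klk8 encodes neuropsin, a secreted protease that is known to cleave EphB2. It read 29.2, 229.7 and 72.4 on naïve and 1649, 2408 and 2215.5 on iLarge T arrays, a log2 difference of 4.71 ± 0.79 (SE) at a limma adjusted p of 0.00942. Of its naïve signals, 2 were under the 40th percentile, so the size of the fold rests in part on background, and with iLarge T replicate 4 or 6 left out the adjusted p rose to 0.0630 or 0.0577. Adam10, the metalloprotease that sheds ephrins, had a log2 difference of -0.53 (adjusted p = 0.230 from limma) and did not pass the test, and neither did the measured secretase subunits.

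The ephrin-A ligands and EphA receptors, the sister family tethered by a lipid anchor on the ligand side, had 1 gene called lower and 0 higher by limma among 14 measured. Over all genes, 3.26% were called lower and 3.54% higher. At an unadjusted p under 0.05, limma gave 2 higher and 3 lower, against 11.6% and 10.5% of all genes. The iLarge T signals all lay above the naïve signals for 4 of the 14 and all below them for 3, against 14.5% and 13.1% of all genes. The count of called genes moved with the setting. With low signals raised it was 2 higher (Efna3 and Epha4) and 3 lower (Efna1, Efna2 and Epha2). It was 3 higher and 2 lower without naïve replicate 1, and 0 higher and 3 lower with the pairs as a block. Efna1 fell from signals of 1378, 5185 and 5423 to 429.6, 469.5 and 1019, a log2 difference of -2.52 ± 0.58 (SE) at a limma adjusted p of 0.0389. Its call was lost with any array but naïve replicate 1 left out, at adjusted p of 0.0561 to 0.177. Epha4, an EphA receptor that also binds ephrin-B ligands, read 2290.5, 338 and 13.9 on naïve and 3976, 2735.5 and 2829 in iLarge T BMSC. These groups did not overlap, yet the naïve arrays ranged from background to a level near that of the iLarge T arrays. Its log2 difference of 3.83 ± 1.43 (SE) at a limma adjusted p of 0.191 did not pass the test, although it was called at 5.51 (adjusted p = 0.00898) without naïve replicate 1 and at 2.58 (adjusted p = 0.0152) where signals under the 40th percentile were set to it. The authors report EphA4 among the axon guidance genes that rose most significantly. The methods' t-test as run here gave Epha4 an adjusted p of 0.509 on log2 and 0.347 on linear signals. A difference between the ephrin-A and ephrin-B families was not tested.

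Efnb2 and Ephb4 mark arteries and veins, so the genes of arterial and venous identity were read beside them. Of 15 measured, limma called 2 higher and 0 lower, where 3.54% of all genes were called higher and 3.26% lower. At an unadjusted p under 0.05, limma gave 6 of them higher and 0 lower, against 11.6% and 10.5% of all genes. The median log2 difference of the list was 0.09. With the control-signal pairs as a block 4 were called higher, Notch4, Hey1, Nrp1 and Acvrl1, and without naïve replicate 1, 5 were. Nrp1, a co-receptor of VEGF and semaphorins, differed by 1.18, 1.16 and 1.25 on the log2 scale in the 3 pairs, with an adjusted p of 0.239 from limma without and 0.00449 with the block. Acvrl1, a receptor of bone morphogenetic proteins in endothelium, read 333.8, 254.6 and 139 on naïve and 1719.8, 1953 and 2913 on iLarge T arrays, a log2 difference of 3.23 ± 0.51 (SE) at a limma adjusted p of 0.00759. Without iLarge T replicate 6 its adjusted p was 0.0524. Hey1, a transcriptional repressor downstream of Notch, had a log2 difference of 1.88 ± 0.45 (SE) at a limma adjusted p of 0.0438, and the call was lost with any array but naïve replicate 1 left out (0.110 to 0.178) and with quantile normalization (0.0585), given as adjusted p. The Notch ligand Dll4 (log2 difference -0.01, adjusted p = 0.995) and the venous factor Nr2f2 (0.94, adjusted p = 0.190) were not called by limma. Of the 9 endothelial markers, 3 were called higher and 1 lower, and 6 were near background on all 3 naïve arrays. Their part in the values of Acvrl1 and Hey1 was not tested.

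**Figure D5:**
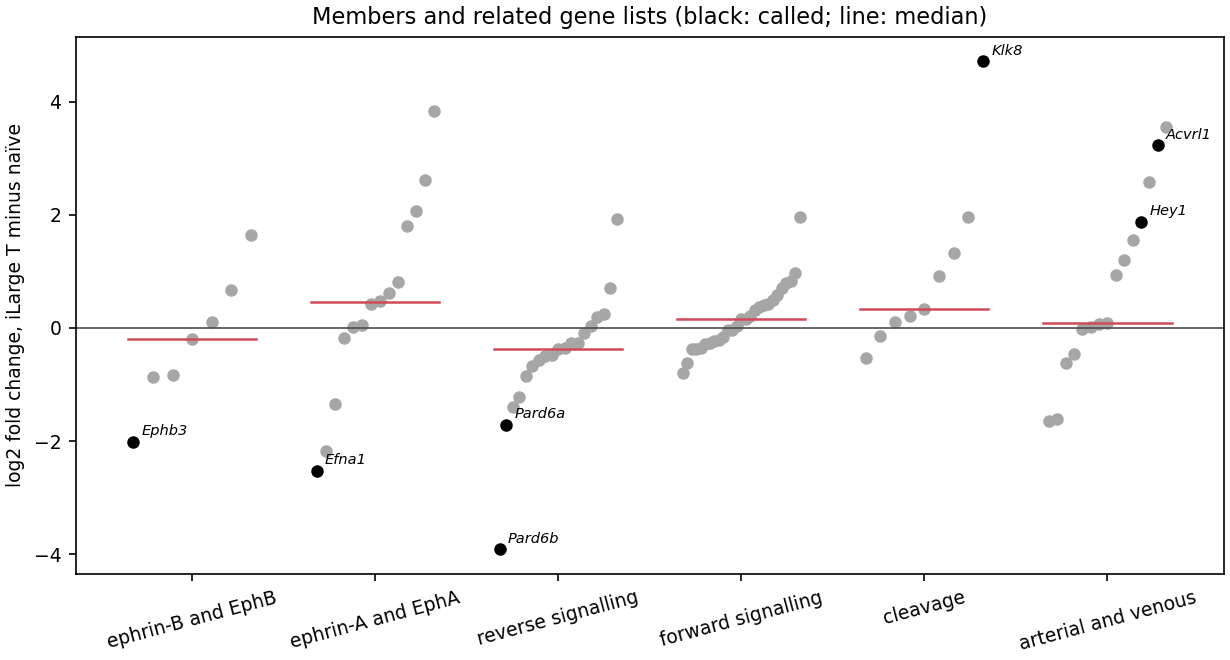
Log2 difference, iLarge T minus naïve (vertical axis), of the measured genes of the ephrin-B and EphB family and of 5 related lists, each gene at its main probe set; black points with names were called by limma, grey points were not, and red lines are medians. Ephb3 is the only called gene of its family, and the medians of the 6 groups lie between -0.38 and 0.45.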

How the data were processed

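RNA was measured on 6 arrays of the Affymetrix type Mouse Genome 430 2.0, of which 3 held naïve Large T BMSC (replicates 1, 3 and 5) and 3 held iLarge T BMSC (replicates 2, 4 and 6), numbered as in the labels. The deposited values are MAS5 intensity signals on a linear scale, which the authors made with GeneChip Operating Software 1.2 and scaled to a trimmed mean of 2500 per array. Log2 was taken, 64 control probe sets were left out, and 45037 probe sets were tested in R 4.3.3 with the lmFit and eBayes (trend = TRUE) functions of limma 3.58.1. P-values were adjusted by Benjamini-Hochberg across all probe sets tested. For a gene with several probe sets, the one brightest on average in log2 was used. Of the 7 measured members, 7 matched RefSeq by gene identifier, and promoter windows were found for 7 of the 8 genes. The test was checked on data with known changes. The members, gene lists, markers, alternatives and the rule for named genes were chosen with earlier results of these data known. The rule took all members, Epha4, called genes of each list (up to 4) and the 3 genes nearest to a called member. Other genes given as examples were named after their values were seen. The labels pair no arrays, but 18 hybridization control probe sets placed them in 3 pairs, 1 array of each group in each (replicates 1 and 2, 3 and 4, 5 and 6). The settings varied were the methods' t-test on log2 and linear signals, limma without the trend, quantile normalization, a filter on and a floor for low signals, log2 of the signal plus 16, other choices of probe set, no fold threshold, the control-signal pairs as a block and each array left out. Python 3.11.15, pandas 2.3.3, scipy 1.17.1 and matplotlib 3.10.9 were used for tables and figures.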

Additional observations from a re-analysis of the deposited data

How the results depend on the processing

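The count of 1 member called lower was 0 under the methods' t-test on log2 signals, under that on linear signals and under limma without the intensity trend, and ranged from 0 to 1 with each array left out. It stayed at 1 under the other 8 alternatives, and the count of members called higher was 0 under all 17. The log2 difference of Ephb3 ranged from -2.32 to -1.65 and was called under 10 of 17 alternatives. Apart from other choices of probe set and no fold threshold, which reuse its only probe set and its reported result, it was called under 7 of 14. Efnb1 was below 0 under all 17 (-1.26 to -0.77) and was called under none, with adjusted p of 0.0503 to 0.389. The value of -1.26 belongs to the choice of its most variable probe set. Efnb2 (-1.09 to -0.30) and Ephb4 (-0.36 to -0.06) kept their sign and were called under none. The sign of Efnb3 turned with quantile normalization (-0.024) and with 3 of the arrays left out in turn (range over the 6 arrays -0.38 to 0.78), and that of Ephb6 without naïve replicate 1 (range -0.35 to 2.72). The cause of these shifts was not tested, beyond the low signals given above. Efnb3 and Ephb1 are dim and could not be tested with the filter on dim probe sets. With control-signal pairs as a block, the calls of the 7 members were the same at their main probe sets, while in the related lists Dvl2, Efna2 and Epha2 were added as lower and Kalrn, Notch4 and Nrp1 as higher. Between 0 and 4 reverse signaling genes, 0 and 3 ephrin-A or EphA genes and 0 and 1 members were called lower over the 17 alternatives, and between 0 and 1 reverse signaling genes, 0 and 2 forward signaling or cleavage genes, 0 and 3 ephrin-A or EphA genes and 0 and 5 arterial or venous genes higher. Genes called higher and lower over the whole array numbered 644 and 593 as reported, 7 and 7 by the methods' t-test on log2 signals, 17 and 36 on linear signals, 85 and 48 without the trend, 971 and 850 with low signals raised, 1298 and 1214 without naïve replicate 1, and 250 to 362 and 232 to 355 with any other array left out. With 3 arrays a group and no detection calls, changes of dim members such as Efnb3 and Ephb1 are bounded only by wide intervals.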
